A study of Mus musculus with 4 samples.

Results

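Transcripts of 37 genes that mark macrophages and monocytes were followed in sorted cardiac neutrophils. The genes were taken from a list of macrophage genes chosen with earlier results of these data known. All 37 were found by name among the 25655 genes of the files. They were grouped by role into 11 macrophage identity genes, 12 genes of resident-type macrophages, 11 genes of lipid-associated macrophages and 3 monocyte-type genes. Neutrophils were sorted as CD45.2+CD11b+Ly6G+ cells from the hearts of adult male WT and *Cd300a-/-* mice on day 3 after myocardial infarction and reperfusion (MI/R), and were split by surface SiglecF into SiglecF hi and SiglecF lo cells. The labels call these subsets SiglecF-positive and SiglecF-negative. The *Cd300a-/-* mice lack CD300a, an inhibitory receptor of myeloid cells, in every cell type, so that their macrophages lacked it too. Each of the 4 groups was 1 library made from the pooled hearts of 8 mice. With 1 library per group no difference had a replicate check, no P value is given, and the values describe these 4 libraries.

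Macrophages of the heart are either long-lived resident cells, which carry scavenger and uptake receptors such as CD163, MRC1, LYVE1 and FOLR2, or descendants of blood monocytes that enter after injury. After infarction they clear dead cells, including dying neutrophils, and macrophages loaded with cell debris and lipid turn on a program that includes *Trem2*, *Gpnmb*, *Spp1*, *Apoe* and *Lpl*. Neutrophils themselves transcribe some genes of the list, among them *Lyz2*, which encodes lysozyme, and carry Ly6C on their surface. In a sorted bulk sample, fewer cells of a type and less RNA per cell cannot be told apart.

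In depth, the library of WT SiglecF lo neutrophils held 9631901 counts and that of *Cd300a-/-* SiglecF lo neutrophils 10988619, while the deeper SiglecF hi libraries held 19278243 in WT and 17632989 in *Cd300a-/-* mice. Levels are given as TPM, a share of transcripts that has the same total in every library, which corrects for gene length. *Cd300a* stood at 163 TPM in WT SiglecF hi, 127 in WT SiglecF lo, 0.740 in *Cd300a-/-* SiglecF hi and 1.06 in *Cd300a-/-* SiglecF lo neutrophils, so that the labels of genotype were borne out. *Siglecf* was at 354 TPM in WT SiglecF hi, 11.3 in WT SiglecF lo, 405 in *Cd300a-/-* SiglecF hi and 15.3 in *Cd300a-/-* SiglecF lo neutrophils, high in both SiglecF hi libraries and low in both SiglecF lo libraries. The neutrophil markers were present in all 4 libraries, with *S100a9* at 13719 TPM in WT SiglecF hi, 76228 in WT SiglecF lo, 15355 in *Cd300a-/-* SiglecF hi and 89228 in *Cd300a-/-* SiglecF lo neutrophils. *Ly6g*, which encodes the antigen of the sort and was picked out after its values were seen, had 11.1 TPM in WT SiglecF hi, 330.4 in WT SiglecF lo, 41.9 in *Cd300a-/-* SiglecF hi and 889 in *Cd300a-/-* SiglecF lo neutrophils, far less in both SiglecF hi libraries than in the SiglecF lo libraries.

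Differences are given as log2 ratios of TPM + 1, followed in parentheses by the 95% interval from the Poisson error of both counts, which covers counting error only. Among 6523 genes with a mean over 10 TPM, which include every gene of the list, the median ratio of SiglecF hi to SiglecF lo neutrophils was 0.53 in WT and 0.61 in *Cd300a-/-* mice. A centred ratio is the ratio less this median. For *Cd300a-/-* against WT mice the median was 0.04 among SiglecF hi and -0.02 among SiglecF lo cells. The 10 most abundant genes took 12.3% of TPM in WT SiglecF hi, 22.8% in WT SiglecF lo, 11.8% in *Cd300a-/-* SiglecF hi and 26.7% in *Cd300a-/-* SiglecF lo neutrophils.

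The 37 macrophage genes were detected in all 4 libraries and were in sum higher in SiglecF hi than in SiglecF lo neutrophils in both genotypes. Together they reached 44869 TPM in WT SiglecF hi, 19869 in WT SiglecF lo, 38124 in *Cd300a-/-* SiglecF hi and 16757 in *Cd300a-/-* SiglecF lo neutrophils. They took 3.61% of all counts in WT SiglecF hi (Wilson 95% interval 3.61% to 3.62%), 1.86% in WT SiglecF lo (1.85% to 1.87%), 3.07% in *Cd300a-/-* SiglecF hi (3.06% to 3.08%) and 1.53% in *Cd300a-/-* SiglecF lo neutrophils (1.52% to 1.54%). The lowest level of any of the 37 was 5.65 TPM and the fewest counts were 191, so that none was near the limit of detection. In WT mice 29 were higher in SiglecF hi neutrophils by over 0.5 log2 and 4 were lower, where 51.9% of all genes tested were higher and 7.47% lower. In *Cd300a-/-* mice 31 were higher and 2 lower, where 56.6% of all genes were higher and 7.97% lower. With the ratios centred, 20 were higher and 4 lower in WT mice and 19 higher and 3 lower in *Cd300a-/-* mice, and TMM-scaled counts gave the same numbers. For all genes the centred ratios gave 1259 higher and 1363 lower in WT mice and 1382 higher and 1540 lower in *Cd300a-/-* mice, and TMM-scaled counts gave 1309 and 1371, and 1580 and 1427. The median of the 37 was 1.26 in WT and 1.13 in *Cd300a-/-* mice, or 0.73 and 0.52 after centring. Their highest level was in WT SiglecF hi neutrophils for 27 genes, in *Cd300a-/-* SiglecF hi neutrophils for 7 and in WT SiglecF lo neutrophils for 3, and their lowest in *Cd300a-/-* SiglecF lo neutrophils for 25 and in WT SiglecF lo neutrophils for 9.

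**Figure D1:**
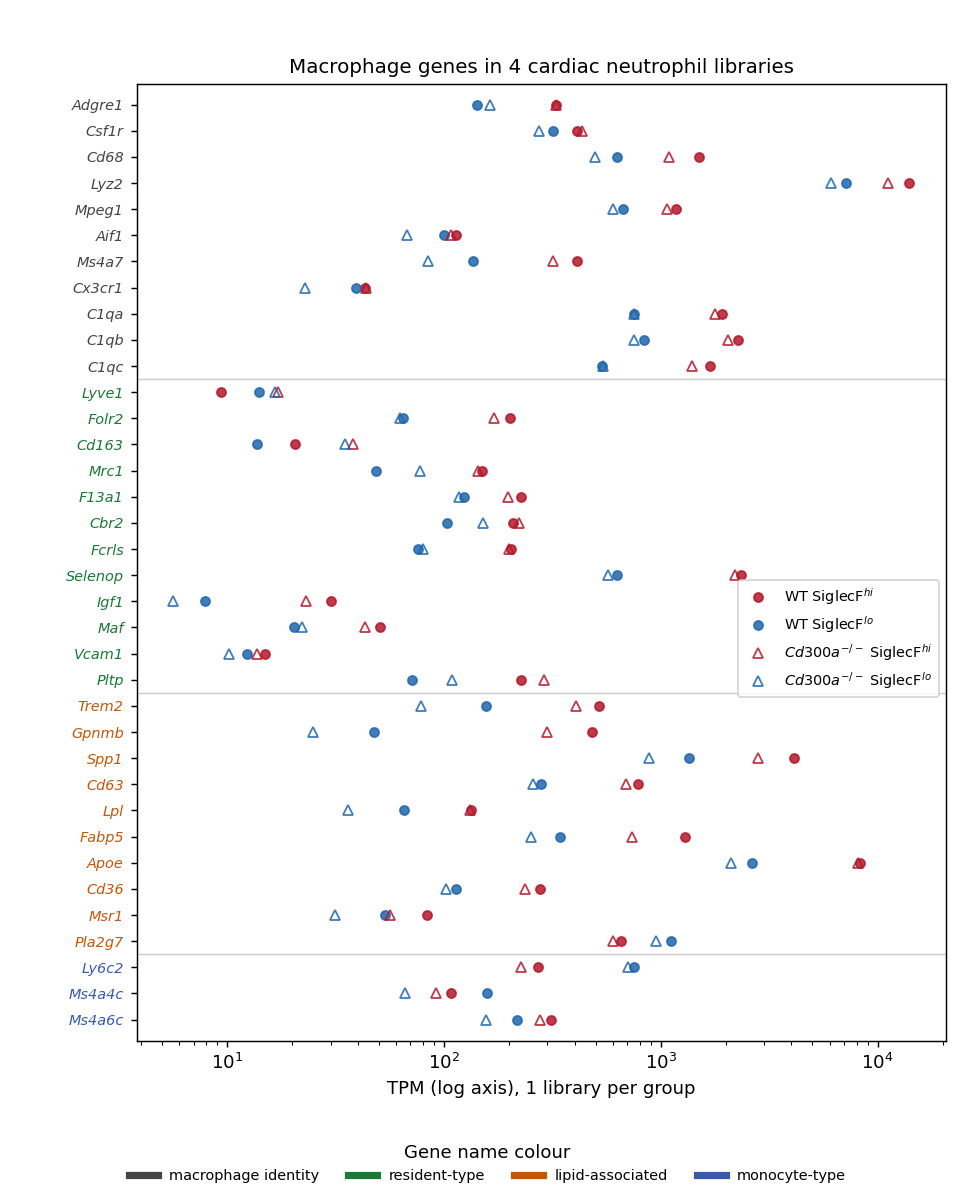
Levels of 36 of the 37 macrophage genes in TPM on a log axis, 1 library per group, with circles for WT and triangles for *Cd300a-/-* mice and red for SiglecF hi and blue for SiglecF lo neutrophils. Most red symbols lie to the right of the blue symbols, and for *Pla2g7* and *Ly6c2* they lie to the left in both genotypes.

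Among the macrophage identity genes, the 3 chains of complement C1q were far above most genes of the libraries. C1q is a pattern recognition protein of the classical complement pathway, made in tissues mainly by macrophages. *C1qa* stood at 1908 TPM in WT SiglecF hi, 753 in WT SiglecF lo, 1769 in *Cd300a-/-* SiglecF hi and 755 in *Cd300a-/-* SiglecF lo neutrophils. *C1qb* stood at 2257 TPM in WT SiglecF hi, 839 in WT SiglecF lo, 2036 in *Cd300a-/-* SiglecF hi and 754 in *Cd300a-/-* SiglecF lo neutrophils. *C1qc* stood at 1684 TPM in WT SiglecF hi, 535 in WT SiglecF lo, 1389.7 in *Cd300a-/-* SiglecF hi and 544 in *Cd300a-/-* SiglecF lo neutrophils. All 3 were higher in SiglecF hi than in SiglecF lo neutrophils, and within a subset the log2 ratio of *Cd300a-/-* to WT mice was between -0.28 and 0.02 for each of them. The 3 genes are neighbors on chromosome 4 of GRCm39, from 136607440, the start of *C1qb*, to 136626114, the end of *C1qa*. The ratio of their mean level between SiglecF hi and SiglecF lo neutrophils was 1.46 (1.43 to 1.49) in WT and 1.34 (1.31 to 1.37) in *Cd300a-/-* mice, or 0.93 and 0.73 after centring.

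*Lyz2* was the most abundant of the 37 genes, with 13938 TPM in WT SiglecF hi, 7165 in WT SiglecF lo, 11189 in *Cd300a-/-* SiglecF hi and 6061 in *Cd300a-/-* SiglecF lo neutrophils. It ranked second in WT SiglecF hi neutrophils among all genes, and its subset ratio was 0.96 (0.95 to 0.97) in WT and 0.88 (0.87 to 0.90) in *Cd300a-/-* mice. Its paralog *Lyz1*, picked out after its values were seen, stood at 50.5 TPM in WT SiglecF hi, 10.0 in WT SiglecF lo, 53.1 in *Cd300a-/-* SiglecF hi and 9.50 in *Cd300a-/-* SiglecF lo neutrophils, and how reads were divided between the pair is not given in the sources used here. *Adgre1*, which encodes F4/80, stood at 329 TPM in WT SiglecF hi, 142 in WT SiglecF lo, 329 in *Cd300a-/-* SiglecF hi and 163 in *Cd300a-/-* SiglecF lo neutrophils, higher in SiglecF hi neutrophils in both genotypes. *Cd68*, a lysosomal glycoprotein gene, had 1499 TPM in WT SiglecF hi, 627 in WT SiglecF lo, 1087 in *Cd300a-/-* SiglecF hi and 495 in *Cd300a-/-* SiglecF lo neutrophils, with the WT libraries above the *Cd300a-/-* libraries of the same subset. *Mpeg1*, which encodes the pore-forming perforin-2, had subset ratios of 0.80 (0.77 to 0.83) in WT and 0.83 (0.81 to 0.86) in *Cd300a-/-* mice.

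*Csf1r*, the receptor that macrophages need for survival, was at 413 TPM in WT SiglecF hi, 318 in WT SiglecF lo, 434 in *Cd300a-/-* SiglecF hi and 274 in *Cd300a-/-* SiglecF lo neutrophils. Its subset ratio was 0.38 (0.34 to 0.41) in WT and 0.66 (0.62 to 0.70) in *Cd300a-/-* mice, which became -0.15 and 0.05 after centring. *Cx3cr1*, the fractalkine receptor, was at 43.0 TPM in WT SiglecF hi, 39.1 in WT SiglecF lo, 43.5 in *Cd300a-/-* SiglecF hi and 22.9 in *Cd300a-/-* SiglecF lo neutrophils, with the low value in *Cd300a-/-* SiglecF lo neutrophils. *Aif1*, which encodes the actin-binding protein IBA1, was at 113 TPM in WT SiglecF hi, 99.5 in WT SiglecF lo, 108 in *Cd300a-/-* SiglecF hi and 67.9 in *Cd300a-/-* SiglecF lo neutrophils, again lowest in *Cd300a-/-* SiglecF lo neutrophils. For *Csf1r*, *Cx3cr1* and *Aif1* the WT ratio lay above 0 as measured and below 0 after centring or TMM scaling. *Ms4a7*, a tetraspan membrane protein gene of macrophages, had the largest ratio of the identity genes in *Cd300a-/-* mice, 1.91 (1.81 to 2.02), beside 1.59 (1.502 to 1.68) in WT mice. Of the 11 identity genes, 8 were higher and 0 lower in SiglecF hi neutrophils of WT mice, and all 11 were higher in *Cd300a-/-* mice, with 6 and 5 higher after centring.

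Resident-type genes did not share a single subset ratio. The 12 genes summed to 3673 TPM in WT SiglecF hi, 1186 in WT SiglecF lo, 3566 in *Cd300a-/-* SiglecF hi and 1256 in *Cd300a-/-* SiglecF lo neutrophils, and *Selenop*, which encodes the selenium carrier selenoprotein P, was the most abundant of them. *Selenop* alone stood at 2331 TPM in WT SiglecF hi, 629.7 in WT SiglecF lo, 2209 in *Cd300a-/-* SiglecF hi and 568 in *Cd300a-/-* SiglecF lo neutrophils, high in both SiglecF hi libraries. In WT mice 10 of the 12 were higher and 1 lower in SiglecF hi neutrophils, with a median of 1.35, and in *Cd300a-/-* mice 9 were higher and 0 lower, with a median of 0.90. After centring the medians were 0.82 and 0.28, with 7 higher and 1 lower in WT and 5 higher and 1 lower in *Cd300a-/-* mice.

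Among the receptor genes *Lyve1*, *Cd163*, *Folr2* and *Mrc1*, only *Lyve1* in WT mice had a subset ratio below 0 before centring. *Lyve1*, a hyaluronan receptor gene, stood at 9.41 TPM in WT SiglecF hi, 13.99 in WT SiglecF lo, 17.2 in *Cd300a-/-* SiglecF hi and 16.6 in *Cd300a-/-* SiglecF lo neutrophils. Its lowest value was in WT SiglecF hi neutrophils, and its subset ratio was -0.53 (-0.77 to -0.28) in WT and 0.05 (-0.16 to 0.26) in *Cd300a-/-* mice, the second of which was -0.57 after centring. *Cd163*, the hemoglobin scavenger receptor gene, stood at 20.5 TPM in WT SiglecF hi, 13.8 in WT SiglecF lo, 38.2 in *Cd300a-/-* SiglecF hi and 34.8 in *Cd300a-/-* SiglecF lo neutrophils, with both *Cd300a-/-* libraries above both WT libraries. *Folr2*, a folate receptor gene, stood at 201 TPM in WT SiglecF hi, 64.8 in WT SiglecF lo, 171 in *Cd300a-/-* SiglecF hi and 62.6 in *Cd300a-/-* SiglecF lo neutrophils, with both SiglecF hi libraries above both SiglecF lo libraries. The subset ratios of *Cd163* were 0.55 (0.37 to 0.72) in WT and 0.13 (0.01 to 0.25) in *Cd300a-/-* mice, beside 1.62 (1.48 to 1.76) and 1.43 (1.29 to 1.58) for *Folr2*. After centring, the ratio of *Cd163* was 0.02 in WT and -0.48 in *Cd300a-/-* mice. *Mrc1*, the mannose receptor gene, stood at 149.9 TPM in WT SiglecF hi, 48.8 in WT SiglecF lo, 143 in *Cd300a-/-* SiglecF hi and 77.9 in *Cd300a-/-* SiglecF lo neutrophils, with SiglecF lo neutrophils higher in *Cd300a-/-* than in WT mice. Its subset ratios were 1.60 (1.52 to 1.68) in WT and 0.87 (0.80 to 0.94) in *Cd300a-/-* mice, or 1.07 and 0.25 after centring.

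The other resident-type genes encode enzymes, secreted factors, an adhesion molecule and a transcription factor. *Igf1*, a growth factor gene, had the largest ratio of this group after *Selenop* in both genotypes, 1.80 (1.67 to 1.94) in WT and 1.85 (1.70 to 2.00) in *Cd300a-/-* mice. *Pltp*, a phospholipid transfer protein gene, stood at 227 TPM in WT SiglecF hi, 71.5 in WT SiglecF lo, 289.6 in *Cd300a-/-* SiglecF hi and 109 in *Cd300a-/-* SiglecF lo neutrophils, higher in SiglecF hi neutrophils and, within each subset, higher in *Cd300a-/-* mice. *Fcrls*, an Fc receptor-like gene, had ratios of 1.42 (1.32 to 1.52) and 1.31 (1.21 to 1.41), and *Maf*, the gene of a transcription factor of resident macrophages, 1.27 (1.17 to 1.38) and 0.93 (0.83 to 1.03). *F13a1*, coagulation factor XIII A, had 0.87 (0.80 to 0.93) and 0.74 (0.67 to 0.80). *Cbr2*, a carbonyl reductase gene, had 1.01 (0.87 to 1.14) in WT and 0.55 (0.43 to 0.66) in *Cd300a-/-* mice, and the latter was -0.07 after centring. *Vcam1*, an adhesion molecule gene that endothelial cells also transcribe, had 0.26 (0.08 to 0.44) and 0.39 (0.21 to 0.58), both below 0 after centring. *Timd4*, a further gene of resident macrophages picked out after its values were seen, had 36 counts in WT SiglecF hi, 38 in WT SiglecF lo, 78 in *Cd300a-/-* SiglecF hi and 57 in *Cd300a-/-* SiglecF lo neutrophils, few in every library.

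Lipid-associated genes held the largest ratio of the 37. *Gpnmb*, a transmembrane glycoprotein gene of lipid-laden macrophages, stood at 482 TPM in WT SiglecF hi, 47.7 in WT SiglecF lo, 299 in *Cd300a-/-* SiglecF hi and 25.0 in *Cd300a-/-* SiglecF lo neutrophils. Both SiglecF hi libraries were far above both SiglecF lo libraries, with ratios of 3.31 (3.23 to 3.40) in WT and 3.53 (3.42 to 3.64) in *Cd300a-/-* mice, or 2.78 and 2.92 after centring. *Trem2*, a lipid-sensing receptor gene, stood at 520.1 TPM in WT SiglecF hi, 157 in WT SiglecF lo, 405 in *Cd300a-/-* SiglecF hi and 78.1 in *Cd300a-/-* SiglecF lo neutrophils, lowest in *Cd300a-/-* SiglecF lo neutrophils. *Apoe*, the gene of a lipid carrier and the most abundant of the 11, stood at 8313 TPM in WT SiglecF hi, 2637 in WT SiglecF lo, 8107 in *Cd300a-/-* SiglecF hi and 2109 in *Cd300a-/-* SiglecF lo neutrophils, high in both SiglecF hi libraries. *Spp1*, which encodes osteopontin, stood at 4111 TPM in WT SiglecF hi, 1349 in WT SiglecF lo, 2815 in *Cd300a-/-* SiglecF hi and 884 in *Cd300a-/-* SiglecF lo neutrophils, with WT above *Cd300a-/-* in both subsets. The 11 genes summed to 16737 TPM in WT SiglecF hi, 6226 in WT SiglecF lo, 14186 in *Cd300a-/-* SiglecF hi and 4751 in *Cd300a-/-* SiglecF lo neutrophils. In each genotype 10 of the 11 were higher and 1 lower in SiglecF hi neutrophils, with medians of 1.47 in WT and 1.67 in *Cd300a-/-* mice. After centring the medians were 0.95 and 1.06, with 7 higher and 1 lower in WT and 9 higher and 1 lower in *Cd300a-/-* mice.

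*Pla2g7*, which encodes a phospholipase that cleaves platelet-activating factor and oxidized phospholipids, was the exception. It stood at 656 TPM in WT SiglecF hi, 1119.8 in WT SiglecF lo, 603 in *Cd300a-/-* SiglecF hi and 953 in *Cd300a-/-* SiglecF lo neutrophils, lower in both SiglecF hi libraries, with ratios of -0.77 (-0.81 to -0.73) and -0.66 (-0.70 to -0.62). *Lpl*, the lipoprotein lipase gene, stood at 133 TPM in WT SiglecF hi, 65.4 in WT SiglecF lo, 132 in *Cd300a-/-* SiglecF hi and 36.0 in *Cd300a-/-* SiglecF lo neutrophils, nearly equal in the SiglecF hi libraries and lowest in *Cd300a-/-* SiglecF lo neutrophils. The ratio of *Lpl* was 1.01 (0.92 to 1.09) in WT and 1.85 (1.75 to 1.95) in *Cd300a-/-* mice. *Fabp5*, a fatty acid binding protein gene, had 1.91 (1.83 to 1.98) and 1.54 (1.46 to 1.62). The scavenger receptor genes *Cd36* and *Msr1* had 1.27 (1.20 to 1.34) and 0.64 (0.54 to 0.74) in WT and 1.20 (1.13 to 1.27) and 0.82 (0.70 to 0.94) in *Cd300a-/-* mice. *Cd63*, a tetraspanin gene of lysosomes and granules, had 1.47 (1.41 to 1.54) and 1.42 (1.35 to 1.48).

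The 3 monocyte-type genes differed from each other. *Ly6c2*, which encodes the Ly6C antigen of inflammatory monocytes, stood at 270.3 TPM in WT SiglecF hi, 756 in WT SiglecF lo, 226 in *Cd300a-/-* SiglecF hi and 706 in *Cd300a-/-* SiglecF lo neutrophils, lower in both SiglecF hi libraries. Its ratios were -1.48 (-1.56 to -1.40) in WT and -1.64 (-1.72 to -1.55) in *Cd300a-/-* mice. *Ms4a4c* stood at 108 TPM in WT SiglecF hi, 158 in WT SiglecF lo, 92.3 in *Cd300a-/-* SiglecF hi and 66.0 in *Cd300a-/-* SiglecF lo neutrophils, and its ratio was -0.54 (-0.64 to -0.44) in WT and 0.48 (0.34 to 0.61) in *Cd300a-/-* mice, or -1.07 and -0.13 after centring. *Ms4a6c*, a neighbor of *Ms4a4c* on chromosome 19, had 0.52 (0.45 to 0.60) and 0.82 (0.74 to 0.91), and the WT value was near 0 after centring. *Ly6c1*, a close paralog of *Ly6c2* picked out after its values were seen, stood at 60.8 TPM in WT SiglecF hi, 100.04 in WT SiglecF lo, 73.6 in *Cd300a-/-* SiglecF hi and 40.3 in *Cd300a-/-* SiglecF lo neutrophils. Its ratios were -0.71 (-0.84 to -0.58) in WT and 0.85 (0.69 to 1.02) in *Cd300a-/-* mice, and how reads were divided between the pair is likewise not given. Endothelial marker genes over 10 TPM had medians of the same signs, -1.07 in WT and 0.82 in *Cd300a-/-* mice. The part of endothelial cells in the values of *Ly6c1* was not tested.

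**Figure D2:**
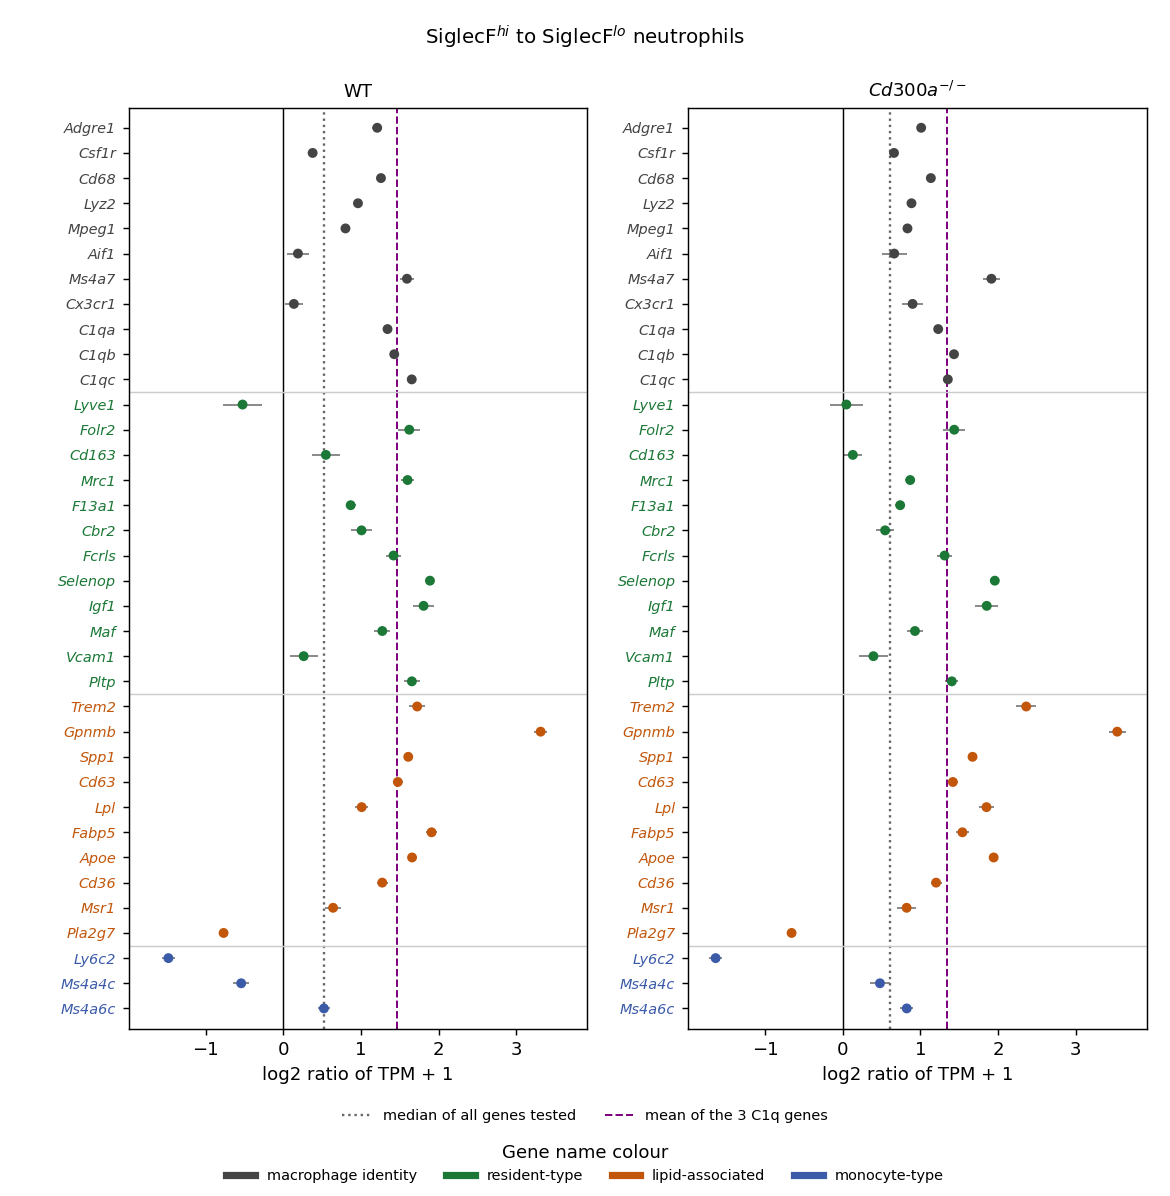
Log2 ratios of TPM + 1 between SiglecF hi and SiglecF lo neutrophils for 36 of the 37 genes in WT (left) and *Cd300a-/-* mice (right), with 95% counting intervals as bars, the median of all genes tested as a dotted line and the mean of the 3 C1q genes as a dashed line. *Gpnmb* lies farthest right and *Ly6c2* farthest left in both panels, and resident-type and lipid-associated genes lie on both sides of the dashed line.

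Levels were also compared within libraries. Each level was divided by the mean level of the 3 C1q genes of the same library, a quantity that does not depend on the scaling between libraries. Of the 34 genes beside C1q, 11 had a counting interval of the SiglecF hi to SiglecF lo quotient above 0 on the log2 scale in WT mice, 21 had one below 0 and 2 had one that held 0. In *Cd300a-/-* mice these numbers were 11, 20 and 3. The share of all genes on either side of C1q was not computed. C1q itself lay above the median of all genes, by 0.93 in WT and 0.73 in *Cd300a-/-* mice, so that most genes tested lay below C1q. The 3 C1q genes themselves ranged from -0.12 to 0.19 about their mean in WT and from -0.11 to 0.09 in *Cd300a-/-* mice. Against this range, added after the values were seen, 7 of the 34 were above, 21 below and 6 within in WT mice, and 11 above, 20 below and 3 within in *Cd300a-/-* mice. Differences between libraries from sorting and preparation were not measured, since no group had a second library.

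Resident-type and lipid-associated genes lay on both sides of C1q, and identity genes lay mostly below it, as did most genes tested. Without the share of all genes, the numbers given next do not set these lists apart from other genes. Of 12 resident-type genes 5 were above, 6 below and 1 level with C1q in WT mice, and 2 were above, 7 below and 3 level in *Cd300a-/-* mice, with medians of -0.09 and -0.42. Of 11 lipid-associated genes 5 were above, 5 below and 1 level in WT mice, and 8 were above and 3 below in *Cd300a-/-* mice, with medians of 0.02 and 0.33. All 3 monocyte-type genes were below C1q in both genotypes, with medians of -2.01 in WT and -0.85 in *Cd300a-/-* mice. Of 8 identity genes beside C1q 1 was above and 7 below in each genotype. Against the range of the 3 C1q genes, 0 of these 8 were above, 7 below and 1 within in WT mice. In *Cd300a-/-* mice 1 was above this range and 7 below.

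Some genes kept nearly the same level relative to C1q in the 4 libraries. *Cd63* had 0.401 in WT SiglecF hi, 0.397 in WT SiglecF lo, 0.398 in *Cd300a-/-* SiglecF hi and 0.376 in *Cd300a-/-* SiglecF lo neutrophils, and the highest value was 1.07 times the lowest. *Fcrls* spanned 1.11 times, *Folr2* 1.13 times and *Cd36* 1.17 times. Others did not. *Gpnmb* had 0.247 in WT SiglecF hi, 0.0672 in WT SiglecF lo, 0.173 in *Cd300a-/-* SiglecF hi and 0.0365 in *Cd300a-/-* SiglecF lo neutrophils, a span of 6.78 times with both SiglecF hi libraries high. *Lyve1* had 0.00483 in WT SiglecF hi, 0.0197 in WT SiglecF lo, 0.00991 in *Cd300a-/-* SiglecF hi and 0.0242 in *Cd300a-/-* SiglecF lo neutrophils, a span of 5.02 times with both SiglecF lo libraries high. *Cd163* spanned 4.83 times, *Pla2g7* 4.69 times, *Ms4a4c* 4.17 times and *Ly6c2* 8.15 times. For *Ly6c2* both SiglecF lo libraries were high and both SiglecF hi libraries low. Among resident-type genes the log2 ratio of quotients in WT mice ran from -2.03 (-2.30 to -1.76) for *Lyve1* to 0.47 (0.32 to 0.62) for *Igf1*. Among lipid-associated genes it ran from -2.23 (-2.28 to -2.19) for *Pla2g7* to 1.88 (1.79 to 1.97) for *Gpnmb*. The part of transcription by neutrophils in these differences was not tested.

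Between genotypes, the SiglecF hi libraries differed little and the SiglecF lo libraries more. In SiglecF hi neutrophils 2 of the 37 genes were higher in *Cd300a-/-* than in WT mice by over 0.5 log2 and 4 lower, where 3.31% of all genes were higher and 3.46% lower. The 2 were *Cd163*, with a ratio of 0.86 (0.74 to 0.98), and *Lyve1*, with 0.80 (0.59 to 1.02). The 4 were *Fabp5*, with -0.81 (-0.86 to -0.77), *Gpnmb*, with -0.69 (-0.72 to -0.65), *Msr1*, with -0.57 (-0.65 to -0.48), and *Spp1*, with -0.55 (-0.57 to -0.53), all lipid-associated. The medians were -0.07 for resident-type and -0.22 for lipid-associated genes, beside 0.04 for all genes. Relative to C1q, 7 resident-type genes were above 0 and 1 below, and 4 lipid-associated genes were above and 5 below. C1q itself was at -0.21 after centring, so that most genes tested lay above it.

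Among SiglecF lo neutrophils, *Cd300a-/-* mice had 4 of the 37 genes higher and 10 lower, where 16.4% of all genes were higher and 19.9% lower. All 4 that were higher were resident-type genes: *Cd163*, with a ratio of 1.28 (1.11 to 1.46), *Mrc1*, with 0.66 (0.57 to 0.76), *Pltp*, with 0.60 (0.48 to 0.72), and *Cbr2*, with 0.55 (0.40 to 0.70). Lipid-associated genes were on the other side. Among them *Trem2* had -0.998 (-1.15 to -0.84), *Gpnmb* -0.91 (-1.04 to -0.77), *Lpl* -0.85 (-0.96 to -0.73), *Msr1* -0.75 (-0.88 to -0.62) and *Spp1* -0.61 (-0.65 to -0.57). The identity genes *Cx3cr1*, *Ms4a7* and *Aif1* had -0.75 (-0.89 to -0.60), -0.69 (-0.81 to -0.56) and -0.55 (-0.72 to -0.37), and *Ms4a4c* had -1.24 (-1.38 to -1.11). The mean C1q level differed by -0.05 (-0.09 to -0.01). The medians were 0.10 for the 12 resident-type and -0.61 for the 11 lipid-associated genes, beside -0.02 for all genes. Marker genes of other cell types also differed here, with medians of -1.45 for endothelial and 0.515 for neutrophil genes. The sums differed by -1.37 for cardiomyocyte, -0.85 for platelet and red cell and 0.02 for fibroblast genes. The part of these cell types in the ratios was not tested. Relative to C1q, 6 resident-type genes were above 0 and 2 below, whereas 10 lipid-associated genes were below and 0 above, with the interval of the remaining gene holding 0. Against the range of the 3 C1q genes, 7 resident-type genes were above and 2 below, and 9 lipid-associated genes were below and 0 above. The share of all genes on either side of C1q was not computed for this comparison, where C1q was at -0.04 after centring.

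**Figure D3:**
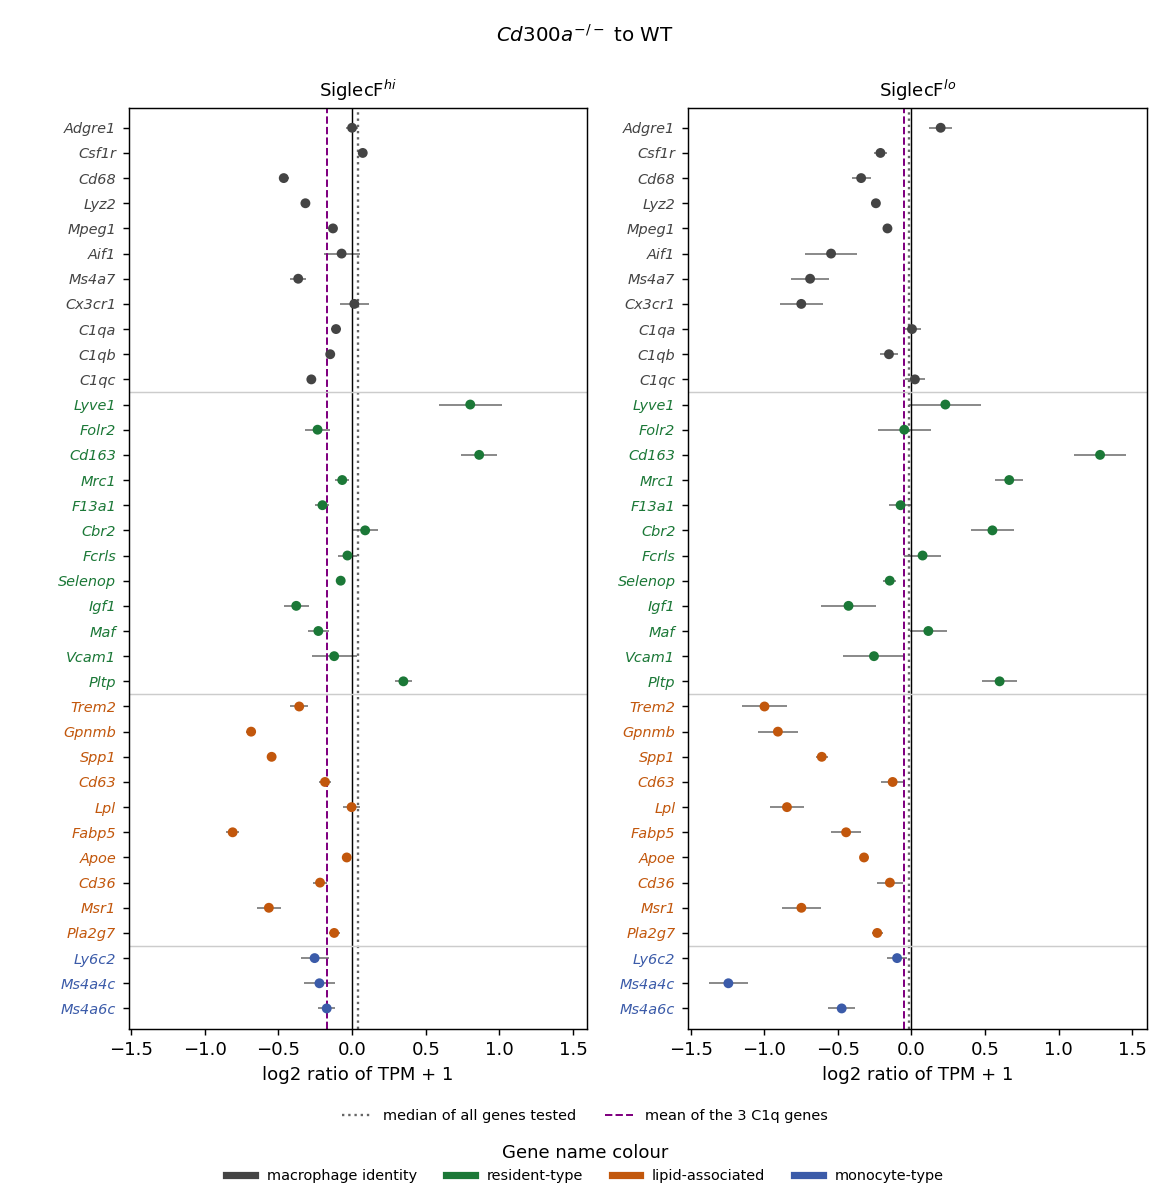
Log2 ratios of TPM + 1 between *Cd300a-/-* and WT mice for 36 of the 37 genes in SiglecF hi (left) and SiglecF lo neutrophils (right), with 95% counting intervals as bars, the median of all genes tested as a dotted line and the mean of the 3 C1q genes as a dashed line. In SiglecF lo neutrophils *Cd163* lies farthest right, and every lipid-associated gene shown lies left of 0.

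Subset ratios in the 2 genotypes also differed from each other by more than counting error for most of the 37 genes. The ratio in *Cd300a-/-* mice less that in WT mice had an interval above 0 for 16 genes and below 0 for 13, and these comparisons share no library. The share of all genes with such an interval was not computed, so these numbers do not set the 37 apart from other genes. The median subset ratio of all genes was itself larger in *Cd300a-/-* mice, and after centring 15 of the 37 had the larger ratio in *Cd300a-/-* mice. The difference was 1.02 (0.85 to 1.19) for *Ms4a4c* and 0.84 (0.71 to 0.97) for *Lpl*. On the other side *Mrc1* had -0.73 (-0.84 to -0.62), *Cbr2* -0.46 (-0.63 to -0.29) and *Cd163* -0.42 (-0.63 to -0.21).

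Beyond the 37, a further 37 macrophage and monocyte genes were listed, of which 33 had a mean over 10 TPM. Of these 33, 22 were higher and 1 lower in SiglecF hi neutrophils of WT mice, and 22 were higher and 0 lower in *Cd300a-/-* mice, with 16 higher and 6 lower, and 17 higher and 7 lower, after centring. Their sum was 32709 TPM in WT SiglecF hi, 22081 in WT SiglecF lo, 29724 in *Cd300a-/-* SiglecF hi and 19469 in *Cd300a-/-* SiglecF lo neutrophils. The 5 most abundant were *Tyrobp*, an adaptor of activating receptors, the cathepsin genes *Ctsd*, *Ctss* and *Ctsb*, and *Cd14*, the lipopolysaccharide co-receptor gene. *Tyrobp* stood at 4928 TPM in WT SiglecF hi, 6599.8 in WT SiglecF lo, 4742 in *Cd300a-/-* SiglecF hi and 5451 in *Cd300a-/-* SiglecF lo neutrophils, and *Cd14* was likewise lower in SiglecF hi neutrophils, with ratios of -0.40 (-0.42 to -0.38) and -0.27 (-0.29 to -0.25). *Ctsd*, *Ctsb* and *Ctss* were higher, with ratios of 1.41 (1.39 to 1.43), 1.73 (1.71 to 1.75) and 0.97 (0.95 to 1.001) in WT and 1.22 (1.20 to 1.24), 1.67 (1.65 to 1.69) and 1.53 (1.495 to 1.56) in *Cd300a-/-* mice.

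The largest ratios of the further genes were those of *Stab1*, a scavenger receptor gene, *Mertk*, a receptor gene for the uptake of dead cells, and *Siglec1*, which encodes CD169, in WT mice. They were 2.40 (2.33 to 2.47), 2.19 (2.01 to 2.38) and 2.13 (1.98 to 2.27). In *Cd300a-/-* mice *Mertk* had 1.92 (1.73 to 2.10) and *Stab1* 1.43 (1.38 to 1.48). The lowest were those of *Siglece*, *Plac8* and *Tyrobp* in WT mice, -0.50 (-0.58 to -0.43), -0.43 (-0.49 to -0.38) and -0.42 (-0.45 to -0.40), and of *Siglece*, *Cd14* and *Chil3* in *Cd300a-/-* mice, where *Siglece* had -0.43 (-0.50 to -0.36) and *Chil3* -0.26 (-0.31 to -0.20).

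Marker genes of other cell types were read in the same libraries, and their part in the results on macrophage genes was not tested. The 16 neutrophil genes, all over 10 TPM on average, summed to 32935 TPM in WT SiglecF hi, 163008 in WT SiglecF lo, 39561 in *Cd300a-/-* SiglecF hi and 215887 in *Cd300a-/-* SiglecF lo neutrophils, with *S100a9* the most abundant and none at 0. This sum was lower in SiglecF hi neutrophils, with ratios of -2.31 (-2.32 to -2.30) in WT and -2.45 (-2.46 to -2.44) in *Cd300a-/-* mice. Of the 16 genes, 11 were lower and 1 higher by over 0.5 log2 in WT mice, and 12 lower and 2 higher in *Cd300a-/-* mice, and after centring 14 were lower and 0 higher in each genotype. *Csf1*, picked out after its values were seen, was higher in both, by 0.98 (0.94 to 1.01) and 0.96 (0.92 to 0.99), or 0.45 and 0.34 after centring. Some of the 16, such as the granule genes, are known to be shut down as neutrophils mature. The 6 fibroblast genes summed to 1999.7 TPM in WT SiglecF hi, 924 in WT SiglecF lo, 1386 in *Cd300a-/-* SiglecF hi and 937 in *Cd300a-/-* SiglecF lo neutrophils, with *Dcn* the most abundant and none at 0. This sum was higher in SiglecF hi neutrophils in both genotypes, by 1.11 (1.09 to 1.14) in WT and 0.56 (0.54 to 0.59) in *Cd300a-/-* mice, but the median of the genes over 10 TPM was 0.59 in WT and -0.24 in *Cd300a-/-* mice after centring.

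The sum of the endothelial genes moved in opposite directions in the 2 genotypes. The 5 genes summed to 69.7 TPM in WT SiglecF hi, 136 in WT SiglecF lo, 91.4 in *Cd300a-/-* SiglecF hi and 45.1 in *Cd300a-/-* SiglecF lo neutrophils, with *Pecam1* the most abundant and none at 0, so that *Cd300a-/-* SiglecF lo neutrophils were lowest. The 4 with a mean over 10 TPM were all lower in SiglecF hi neutrophils of WT mice and all higher in those of *Cd300a-/-* mice, while *Kdr*, below this limit and picked out after its values were seen, was higher in both, by 0.26 (0.05 to 0.47) and 1.23 (1.000 to 1.45). After centring 4 were still lower in WT mice by over 0.5 log2 but only 1 was higher in *Cd300a-/-* mice, where the median fell from 0.82 to 0.21, and the WT ratio of *Kdr* was -0.27. Platelet and red cell genes, 5 in all and led by *Hbb-bs*, summed to 442 TPM in WT SiglecF hi, 598 in WT SiglecF lo, 479.8 in *Cd300a-/-* SiglecF hi and 332 in *Cd300a-/-* SiglecF lo neutrophils, lowest in the same library. The 5 cardiomyocyte genes, led by *Mb*, summed to 44.5 TPM in WT SiglecF hi, 35.7 in WT SiglecF lo, 76.9 in *Cd300a-/-* SiglecF hi and 13.8 in *Cd300a-/-* SiglecF lo neutrophils, again lowest there. None of the genes of these lists was at 0 in every library.

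The 8 dendritic cell genes summed to 1597 TPM in WT SiglecF hi, 1755 in WT SiglecF lo, 1667 in *Cd300a-/-* SiglecF hi and 1869 in *Cd300a-/-* SiglecF lo neutrophils, nearly all of it from *Cd74* and from *H2-Ab1*, the latter picked out after its values were seen, both of which macrophages and B cells also transcribe, and the libraries were within a narrow range. The 6 eosinophil genes summed to 116 TPM in WT SiglecF hi, 173 in WT SiglecF lo, 119 in *Cd300a-/-* SiglecF hi and 87.8 in *Cd300a-/-* SiglecF lo neutrophils, nearly all of it from *Ear2*, which monocytes and macrophages transcribe too, while *Epx*, the eosinophil peroxidase gene, had 0 counts in every library. The 10 lymphocyte genes summed to 10.99 TPM in WT SiglecF hi, 12.7 in WT SiglecF lo, 19.7 in *Cd300a-/-* SiglecF hi and 10.9 in *Cd300a-/-* SiglecF lo neutrophils, led by *Cd79b*, and *Trac* had 0 counts in every library. Among the 5 mast cell genes, *Cpa3*, *Mcpt4*, *Cma1* and *Tpsb2* had 0 counts in every library, and *Kit*, which progenitors also transcribe, was at 1.497 TPM in WT SiglecF hi, 1.149 in WT SiglecF lo, 1.45 in *Cd300a-/-* SiglecF hi and 13.2 in *Cd300a-/-* SiglecF lo neutrophils.

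Positions and neighbors were read from the files, which use GRCm39. The 37 genes lay on 15 chromosomes, with 4 each on chromosomes 10, 17 and 19. On chromosome 19, *Ms4a7* began at 11298403, *Ms4a4c* at 11382134, *Ms4a6c* at 11446730 and *Mpeg1* at 12438143. The WT subset ratios of the *Ms4a* genes differed in sign, with 1.59 for *Ms4a7*, -0.54 for *Ms4a4c* and 0.52 for *Ms4a6c*. In *Cd300a-/-* mice all were above 0, at 1.91, 0.48 and 0.82, though *Ms4a4c* was at -0.13 after centring. From WT to *Cd300a-/-* mice all were lower, by -0.37, -0.22 and -0.17 in SiglecF hi and by -0.69, -1.24 and -0.47 in SiglecF lo neutrophils. For 5 of the 37 genes, *Csf1r*, *Cx3cr1*, *Selenop*, *Pltp* and *Spp1*, another gene of the files overlapped. *Pltp* overlaps *Ctsa* on the opposite strand, which reached 20416 counts in the WT SiglecF hi library. *Cx3cr1* overlaps *Csrnp1* on the same strand, which had 8845 counts in the WT SiglecF hi library and 9386 in the *Cd300a-/-* SiglecF hi library. How reads of overlapping genes were assigned is not given in the sources used here, so the values of *Pltp* and *Cx3cr1* are less certain. The genes over *Selenop* and *Spp1* had at most 17 counts and 0 counts.

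Promoter sequences of 27 of the 37 genes were matched by symbol in RefSeq on GRCm38.p6, each from 250 bases before to 50 bases after a start. They were searched on both strands for 4 short motifs. The core GAGGAA of the myeloid factor PU.1 was in 28.3% of all 32851 promoter windows and in at least 1 window of 18 of the 27 genes. The E-box CACGTG, which factors of the lysosomal program bind, was in 7.15% of windows and in none of the 27. The MAF half-site TGCTGA was in 19.5% of windows and in those of 6 genes, namely *C1qb*, *Cbr2*, *Cd36*, *Fcrls*, *Folr2* and *Lyz2*. The AP-1 site TGACTCA, 1 of the 4 motifs, was added only after it had been seen in the window of *Gpnmb*, so that its match there is no finding. It was in 5.20% of windows and in those of *Cd68*, *Folr2* and *Gpnmb*. The motifs TGCTGA and TGACTCA can overlap by their bases TGA. Some genes had several windows, since the 27 had 36 in all. The percentages count windows and the other numbers count genes with a match in any window, so they cannot be compared directly. A match is a description of letters and not of a bound site.

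Printed here are the windows of *C1qb* and *C1qc*, the reference of the within-library comparison, and of *Gpnmb* and *Ly6c2*, which had the highest and lowest subset ratios. These 4 were picked after their values were seen. They lie at chr4:136886151-136886450, minus strand, at chr4:136892865-136893164, minus strand, at chr6:49036268-49036567, plus strand, and at chr15:75111922-75112221, minus strand, which is the first listed of the 2 windows of *Ly6c2*. Capitals mark matches to any of the 4 motifs on either strand.
C1qb: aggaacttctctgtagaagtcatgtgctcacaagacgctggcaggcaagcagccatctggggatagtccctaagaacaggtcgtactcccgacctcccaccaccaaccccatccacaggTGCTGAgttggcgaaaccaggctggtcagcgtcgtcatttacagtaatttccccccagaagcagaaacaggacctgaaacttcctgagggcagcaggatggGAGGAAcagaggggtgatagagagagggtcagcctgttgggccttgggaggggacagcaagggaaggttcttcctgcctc
C1qc: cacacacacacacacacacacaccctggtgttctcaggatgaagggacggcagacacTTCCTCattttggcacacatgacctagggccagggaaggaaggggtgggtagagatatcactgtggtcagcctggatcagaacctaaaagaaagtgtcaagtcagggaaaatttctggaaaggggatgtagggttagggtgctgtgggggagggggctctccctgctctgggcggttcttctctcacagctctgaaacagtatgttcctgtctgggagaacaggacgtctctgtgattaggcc
Gpnmb: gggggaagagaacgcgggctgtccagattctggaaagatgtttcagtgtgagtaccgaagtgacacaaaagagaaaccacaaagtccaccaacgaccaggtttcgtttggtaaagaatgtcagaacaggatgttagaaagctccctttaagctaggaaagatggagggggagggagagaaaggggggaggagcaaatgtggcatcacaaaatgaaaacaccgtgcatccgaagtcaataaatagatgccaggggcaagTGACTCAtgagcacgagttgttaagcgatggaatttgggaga
Ly6c2: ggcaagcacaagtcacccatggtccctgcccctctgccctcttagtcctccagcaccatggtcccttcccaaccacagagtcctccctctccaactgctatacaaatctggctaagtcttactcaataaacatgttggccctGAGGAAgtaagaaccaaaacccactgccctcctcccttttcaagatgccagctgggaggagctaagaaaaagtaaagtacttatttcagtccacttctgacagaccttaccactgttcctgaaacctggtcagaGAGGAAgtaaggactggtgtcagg
The windows of *C1qb* and *C1qc* held 1 PU.1 core each and that of *Ly6c2* held 2, while that of *Gpnmb* held 0. The window of *C1qb* also held 1 MAF half-site.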

How the data were processed

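Neutrophils of 4 groups were profiled by RNA-seq, with 1 library per group. The authors deposited for each gene an unnormalized whole-number count, an RPKM value, a TPM value and a signal named CPM whose sum differs between libraries. Per the methods, RNA was selected by poly(A) and TPM was computed in CLC Genomics Workbench, and the submitters' processing notes name GRCm39. TPM and counts were used. RPKM and the signal were not.

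Ratios were log2((TPM + 1) ratio) for genes with a mean over 10 TPM, and ratios past 0.5 in either direction were counted. Intervals of 95% were propagated from the Poisson errors of the counts in both libraries compared. Samples were grouped by the labels, and 4 comparisons were made without a test. Alternatives were a pseudocount of 0.1 TPM, a mean over 1 TPM, a log2 threshold of 1, TMM-scaled counts (edgeR 4.0.16 in R 4.3.3) and centring on the median of all genes tested. Calculations ran in Python 3.11.15 with pandas 2.3.3 and numpy 2.4.6, and plots were drawn with matplotlib 3.10.9.

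The 37 genes and all lists were chosen with earlier results of these data known. Named were the 37, from the further macrophage genes the 5 most abundant and the 3 highest and 3 lowest ratios in each subset comparison, and from each other list the most abundant gene and markers at 0 counts, except that 1 gene of the 37 and 1 further gene are not reported here singly and enter only sums, counts and medians. Genes outside this rule are marked in the text, apart from the marker genes of genotype and sort. The lists held neutrophil, eosinophil, dendritic cell, lymphocyte, mast cell, endothelial, fibroblast, cardiomyocyte, and platelet and red cell genes. The promoter motifs were chosen after the promoter sequences had been opened, AP-1 because it stood in the window of *Gpnmb*, and the printed windows after the values were seen.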

Additional observations from a re-analysis of the deposited data

Results flagged for a closer look

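For the 3 genes given here, the direction of a difference was opposite in the 2 groups compared, with both counting intervals off 0. Each group is 1 library, so the differences were not tested across samples. *Ms4a4c* was lower in SiglecF hi than in SiglecF lo neutrophils of WT mice, by -0.54 (-0.64 to -0.44), and higher in *Cd300a-/-* mice, by 0.48 (0.34 to 0.61), a difference of 1.02. After centring both ratios were below 0, so that the opposite direction was lost.

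Between genotypes, the ratio of *Cd300a-/-* to WT mice for *Csf1r* was 0.07 (0.04 to 0.10) among SiglecF hi cells but -0.21 (-0.26 to -0.17) among SiglecF lo cells, a difference of 0.28. For *Mrc1* it was -0.07 (-0.12 to -0.02) among SiglecF hi cells but 0.66 (0.57 to 0.76) among SiglecF lo cells, a difference of -0.73. Both genes kept opposite signs after centring. Relative to C1q, *Csf1r* kept them too, with 0.24 (0.21 to 0.28) among SiglecF hi and -0.16 (-0.22 to -0.10) among SiglecF lo cells. For *Mrc1* the opposite direction was lost relative to C1q, with 0.10 (0.05 to 0.16) among SiglecF hi and 0.73 (0.62 to 0.83) among SiglecF lo cells.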

How the results depend on the processing

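A pseudocount of 0.1 TPM changed none of the counts and medians of the 37 genes beyond the limits set. A mean over 1 TPM could not change them, since all 37 genes already had a mean over 10 TPM. TMM-scaled counts and centring lowered the subset medians. With TMM-scaled counts the resident-type median was 0.82 in WT and 0.33 in *Cd300a-/-* mice and the lipid-associated median 0.93 and 1.09. With centring they were 0.82, 0.28, 0.95 and 1.06. In *Cd300a-/-* mice 19 genes were then higher in SiglecF hi neutrophils under either setting, in place of 31. Centring moved the resident-type median of the genotype comparison in SiglecF hi neutrophils from -0.07 to -0.11. Centring subtracts the median of all genes by its construction, and for TMM the cause was not tested.

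At a log2 threshold of 1, higher genes in SiglecF hi neutrophils of WT mice numbered 22, and lower genes in SiglecF hi neutrophils numbered 1 in WT and 1 in *Cd300a-/-* mice, and 20 were higher in *Cd300a-/-* mice. Between genotypes 0 were higher and 0 lower in SiglecF hi neutrophils, and 1 was higher and 2 were lower in SiglecF lo neutrophils. Of all genes tested, 20.3% were higher and 2.99% lower at this threshold in SiglecF hi neutrophils of WT mice and 26.7% and 3.62% in those of *Cd300a-/-* mice. Between genotypes 0.368% were higher and 0.337% lower among SiglecF hi and 3.36% and 6.01% among SiglecF lo cells. Single genes changed sign in both scalings for *Ms4a6c* in WT mice, to -0.017 with TMM and -0.0046 with centring, and for *Cbr2* in *Cd300a-/-* mice, to -0.034 and -0.068. No other ratio of the 37 past 0.5 changed sign. Preparation, sorting and mouse-to-mouse differences were not measured with 1 library per group, and counts alone set the intervals.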

Other observations

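*Retnlg*, a neutrophil gene picked out after its values were seen, stood at 590.1 TPM in WT SiglecF hi, 12110.1 in WT SiglecF lo, 1360.5 in *Cd300a-/-* SiglecF hi and 24001 in *Cd300a-/-* SiglecF lo neutrophils. Both *Cd300a-/-* libraries were above the WT library of the same subset. *Camp* and *Ngp*, picked out in the same way and made early in neutrophil development, stood at 4.96 TPM in WT SiglecF hi, 298 in WT SiglecF lo, 44.8 in *Cd300a-/-* SiglecF hi and 339 in *Cd300a-/-* SiglecF lo neutrophils, and at 12.96 TPM in WT SiglecF hi, 1177 in WT SiglecF lo, 293 in *Cd300a-/-* SiglecF hi and 3096 in *Cd300a-/-* SiglecF lo neutrophils. For *Ngp* the SiglecF hi libraries of the 2 genotypes differed by 4.40 (4.17 to 4.62), and for *Camp* by 2.94 (2.50 to 3.39). *Kit* reached 394 counts in the *Cd300a-/-* SiglecF lo library against 31 in the WT SiglecF lo library, and the ratio was 2.73 (2.43 to 3.03).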
